A study of Homo sapiens with 12 samples.

Results

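The genes described here encode the working parts of the lysosome: 18 soluble hydrolases, 2 soluble cofactors, 7 lysosomal membrane proteins and 14 subunits of the vacuolar proton pump. They are the rows of the deposited expression table whose gene symbol stands on a list of 42 such genes, from which the cathepsin proteases were left out. CLN3 was the 1 listed gene with no row, so 41 of the 11178 genes in the table were members, and all 41 were among the 11128 genes kept by the filter on low values. RNA was sequenced from U251-APP cells, that is, the astrocytic human glioblastoma line U251 with a stable APP transgene that carries the changes K670N and M671L. Wild type here means these same APP-expressing cells with both CTCF-binding sites in place. The CTCF-A KO cells lack a binding site of the chromatin protein CTCF called CTCF-A, and the CTCF-B KO cells lack one called CTCF-B. Per the labels' protocols, plasmids carrying Cas9 and guide RNAs on either side of a site were transfected, resistant fluorescent cells were picked singly and grown into clones, and their target regions were checked by sequencing. The labels list CRISPR/Cas9 editing as the treatment of all 3 groups and do not say whether the wild-type cells had also been cloned. They give no position of the sites, though the titles of the CTCF-B KO libraries carry the name MTCH2. Each group had 4 libraries. The titles within a group share 1 stem followed by a number, and no label says whether the libraries were separate clones or cultures of 1 clone. The p-values therefore measure the spread between these libraries alone, and that spread may be technical.

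Lysosomal hydrolases are made in the endoplasmic reticulum, tagged with mannose 6-phosphate, carried to the lysosome and activated there by its acid interior. The acid comes from the V-ATPase, in which a cytosolic V1 sector hydrolyses ATP and turns a membrane V0 sector that moves protons, while membrane proteins protect the lysosomal wall and carry lipids, ions and sugars across it. Many of these genes can be raised together by the transcription factor TFEB and its relatives through a promoter element built around the E-box letters CACGTG, and lysosomes are among the compartments in which APP and its fragments are broken down.

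All values below are the deposited normalized expression values on a log2 scale, listed for replicates 1 to 4 in order, so that a difference of 1 is a doubling. Per kilobase of transcript, the wild-type level was highest for PSAP (13.72), the precursor of the saposins, followed by the tetraspanin CD63 (12.95) and the V-ATPase accessory protein ATP6AP1 (11.84). It was lowest for the beta-mannosidase gene MANBA (6.35) and for HEXA (6.73). The hydrolase genes filled most of the lower ranks, and the first of them, NEU1, stood at rank 14 (10.31 per kilobase).

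The libraries of wild type and CTCF-B KO were close to each other, with a median absolute difference between replicates of 0.052 to 0.082, and those of CTCF-A KO were more spread, at 0.08 to 0.29. In CTCF-A KO replicates 1, 2 and 3 the values also ran with the GC content of the transcripts: genes in the top decile of GC stood above genes in the bottom decile by 0.999, 0.472 and 0.68 relative to wild type. Replicate 4 showed 0.065, which lay inside the wild-type range of -0.154 to 0.092. A difference between CTCF-A KO and wild type is therefore followed by its value after this trend was removed, or from replicate 4 without the other CTCF-A KO libraries, where either ended a call or moved the difference by over 1.5 times. Of 12 astrocyte and glioma markers, 8 were in the table, and S100B, AQP4, SLC1A2 and ALDH1L1 had no row; the summed level of the 8 was 17.05 to 17.27 in wild type, 16.43 to 16.65 for CTCF-A KO and 16.24 to 16.31 for CTCF-B KO. GFAP, the defining filament protein of astrocytes, was at -3.11 and -2.85 from wild type in CTCF-A KO and CTCF-B KO, FABP7 at -1.47 and -0.80, and GJA1 at -1.15 and 0.05. Of 6 neuronal markers 3 were in the table, and in CTCF-B KO SYT1 was at 0.71, SNAP25 at 0.43 and MAP2 at -0.27. None of 12 markers of microglia and macrophages, cells rich in lysosomes, had a row in the table. The part of the marker change in the results was not tested, and in bulk RNA fewer cells of a type and less RNA per cell cannot be told apart.

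RefSeq promoter windows of 300 bases, from 250 before to 50 after an annotated start, were found for 27 of the 41 members. The E-box CACGTG, which reads the same on both strands, was present in 9 of the 27 (33.3%) and in 8.77% of the 27305 genes with such a window. Those genes were not limited to the ones in the deposited expression table, as the members were. The longer palindrome TCACGTGA, which contains it, was in 5 of the 27 (18.5%), namely GAA, LAMP1, MCOLN1, ATP6V0D1 and ATP6V1G1, against 1.18% of all genes. The sequences of 5 members are shown to display this feature. It was not used in choosing the genes, but it is known from genes of this kind, as stated above. LAMP1 has the most copies, the next 3 hold the longer palindrome, and NEU1 is the member with the highest CTCF-B KO difference. They are from RefSeq on GRCh38.p14, 5′ to 3′ in the direction of the gene, from 250 bases before the start to 30 bases counted from it, with each CACGTG in capitals.
LAMP1 promoter (chr13:113296989-113297268, plus strand): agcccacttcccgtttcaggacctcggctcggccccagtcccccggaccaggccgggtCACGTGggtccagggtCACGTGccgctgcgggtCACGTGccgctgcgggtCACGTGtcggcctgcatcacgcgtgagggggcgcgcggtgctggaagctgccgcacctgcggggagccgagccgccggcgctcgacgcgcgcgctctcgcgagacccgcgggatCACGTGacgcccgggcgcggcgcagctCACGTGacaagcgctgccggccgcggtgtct
GAA promoter (chr17:80101331-80101610, plus strand): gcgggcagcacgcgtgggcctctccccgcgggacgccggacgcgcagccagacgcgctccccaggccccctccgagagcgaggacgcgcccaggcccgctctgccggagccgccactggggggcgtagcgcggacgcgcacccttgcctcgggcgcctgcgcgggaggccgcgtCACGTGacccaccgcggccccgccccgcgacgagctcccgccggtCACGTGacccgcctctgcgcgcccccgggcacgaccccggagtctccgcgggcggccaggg
MCOLN1 promoter (chr19:7522374-7522653, plus strand): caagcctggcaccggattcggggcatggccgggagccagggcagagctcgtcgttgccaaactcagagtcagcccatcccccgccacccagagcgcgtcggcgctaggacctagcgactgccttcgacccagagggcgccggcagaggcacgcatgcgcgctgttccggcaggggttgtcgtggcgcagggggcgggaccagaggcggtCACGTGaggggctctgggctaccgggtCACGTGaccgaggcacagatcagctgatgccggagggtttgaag
ATP6V1G1 promoter (chr9:114587519-114587798, plus strand): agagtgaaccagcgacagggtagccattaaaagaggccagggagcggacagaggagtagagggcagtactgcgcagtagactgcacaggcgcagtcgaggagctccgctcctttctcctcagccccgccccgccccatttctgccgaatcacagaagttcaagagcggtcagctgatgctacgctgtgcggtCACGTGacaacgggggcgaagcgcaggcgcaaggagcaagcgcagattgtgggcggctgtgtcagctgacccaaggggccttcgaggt
NEU1 promoter (chr6:31862792-31863071, minus strand): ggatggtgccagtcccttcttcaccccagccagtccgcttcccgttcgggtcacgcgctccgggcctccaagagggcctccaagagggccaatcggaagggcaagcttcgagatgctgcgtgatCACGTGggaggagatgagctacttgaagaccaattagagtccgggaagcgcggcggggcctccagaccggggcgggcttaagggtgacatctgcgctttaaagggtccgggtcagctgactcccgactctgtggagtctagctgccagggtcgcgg

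Counted with the first transcribed base as 0, the E-boxes of LAMP1 began at -192, -176, -159, -142, -28 and -1. Those of GAA began at -76 and -31, those of MCOLN1 at -41 and -14, that of ATP6V1G1 at -58 and that of NEU1 at -126. The other members with the motif were ARSB, CD63, ATP6V0B and ATP6V0D1. A match is a description of letters and shows no binding. HEXA, NAGLU, MANBA, ARSA, SGSH, ASAH1, PSAP, LAMP2, HGSNAT, ATP6V0E1, ATP6V1A, ATP6V1B2, ATP6V1C1 and ATP6V1H had no entry.

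In CTCF-A KO most lysosomal genes stood above wild type. By limma with Benjamini-Hochberg adjustment over all genes, 32 of the 41 members were higher and 3 were lower at an adjusted p under 0.05, while 31.8% of all genes tested were higher and 31.1% lower (62.9% in either direction). The median difference of the members was 0.34, against 0.00 over all genes tested. In 28 members all 4 CTCF-A KO libraries lay above all 4 wild-type libraries, an arrangement seen in 25.7% of all genes. In 1 member, SCARB2, all 4 lay below, beside 22.1% of all genes. Of the hydrolases 16 of 18 were higher and none lower, with a median of 0.35. Both soluble cofactors were higher. Of the membrane proteins 4 of 7 were higher and 1 lower (median 0.29), and of the V-ATPase subunits 10 of 14 were higher and 2 lower (median 0.18). These groups were not tested against each other. Their order changed with the GC and length trend removed, at medians of 0.28 (hydrolases), 0.12 (membrane proteins) and 0.20 (V-ATPase).

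The rise of the hydrolases was present in each CTCF-A KO library. The median over the 18 hydrolases, relative to the wild-type mean, was 0.41, 0.30, 0.36 and 0.28 in CTCF-A KO replicates 1 to 4, while single wild-type libraries ran from -0.07 to 0.03. The median of the V-ATPase genes was 0.29, 0.20, 0.23 and 0.10 in the same libraries, and that of the membrane proteins was 0.36, 0.30, 0.26 and 0.14. Replicate 4, the library without the GC trend, was the lowest in each of these groups. With the trend removed, 27 members were higher and none lower, beside 29.0% and 32.5% of all genes. With replicate 4 standing alone for CTCF-A KO, a fit that assumes this library varies like those of the other groups, 22 members were higher and none lower, beside 20.2% and 21.6%. The members' median was 0.22 in the former and 0.19 in the latter. With each library centred on its median the counts were 33 and 3, beside 38.7% and 24.0%, and with only the 8 libraries compared they were 30 and 1, beside 28.5% and 26.8%. Centring moved NEU1 to 0.25, ASAH1 to 0.27 and ATP6V1B2 to 0.23.

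**Figure D1:**
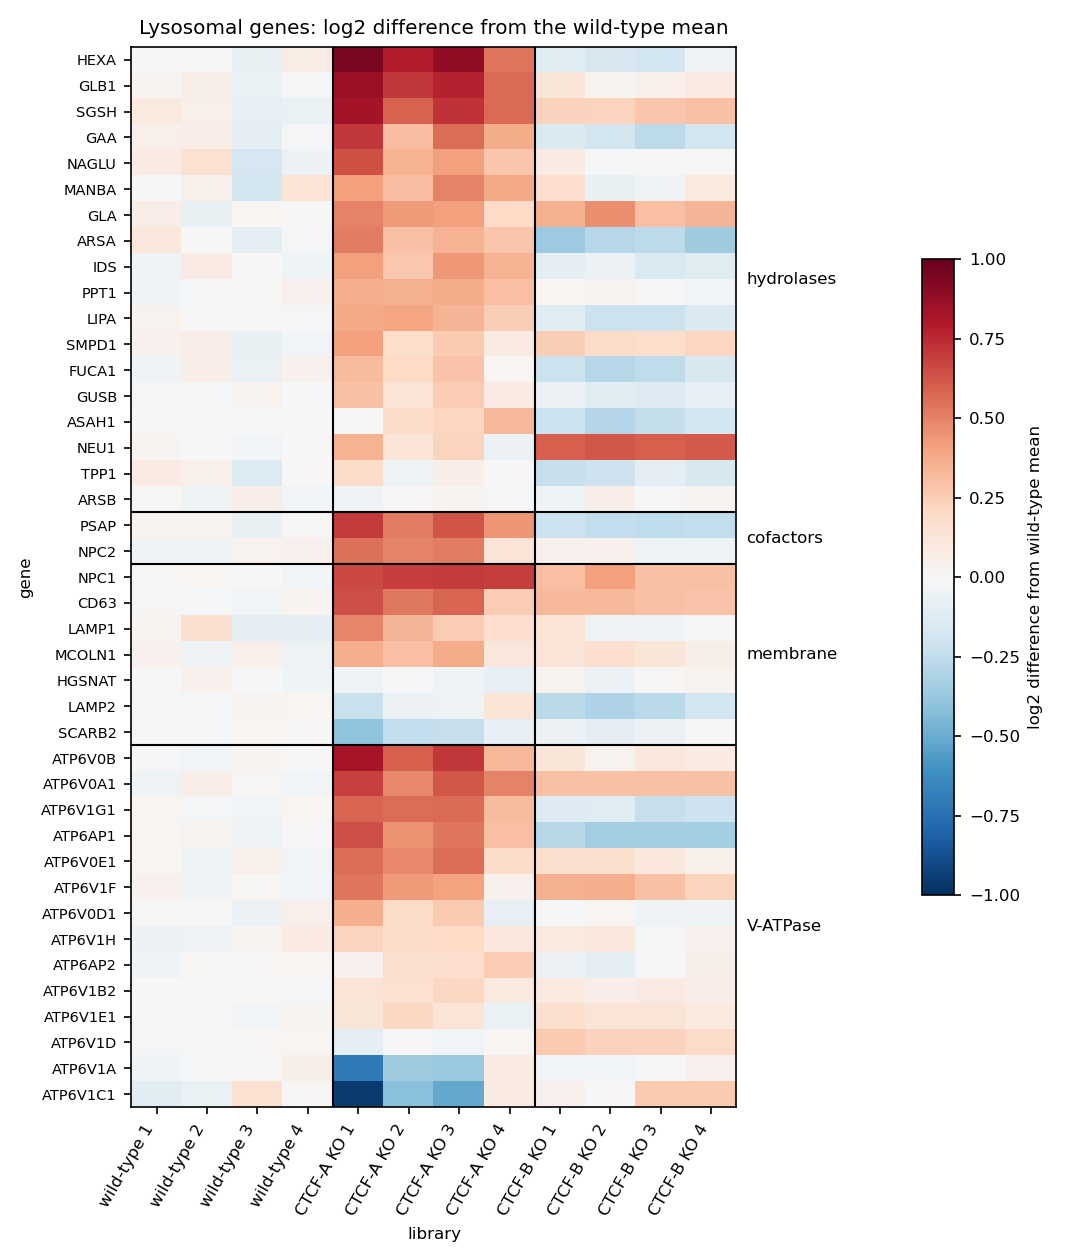
Difference from the wild-type mean, in log2 units and by colour, for the 41 lysosomal genes (rows, grouped by role and ordered by their CTCF-A KO difference) in each of the 12 libraries (columns). Most rows are red in the 4 CTCF-A KO columns, and many of them are paler in replicate 4; SCARB2, ATP6V1A and ATP6V1C1 are blue in replicates 1 to 3, and ARSB, HGSNAT and ATP6V1D are nearly white. The CTCF-B KO columns hold both colours, led by NEU1.

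In CTCF-B KO the same genes moved in both directions. Of the 41 members 9 were higher and 9 lower by limma (adjusted p under 0.05), beside 18.9% and 20.6% of all genes tested (39.4% in either direction), and the median was 0.01, against 0.00 over all genes. These shares, 22% each way, were near those of all genes. Hydrolases were 4 higher and 5 lower of 18, with a median of -0.04. Membrane proteins were 2 higher and 1 lower of 7, and V-ATPase genes 3 higher and 2 lower of 14. In 14 members all 4 CTCF-B KO libraries lay above all 4 wild-type libraries and in 11 all 4 lay below, beside 26.2% and 27.3% of all genes. When only the wild-type and CTCF-B KO libraries were fitted, which leaves out the wider spread of CTCF-A KO, 14 members were higher and 13 lower, beside 29.2% and 30.1% of all genes. With the libraries quantile normalized the split was 12 higher and 6 lower, beside 22.4% and 18.4%.

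Set against each other directly, CTCF-A KO exceeded CTCF-B KO for 28 members and lay below it for 5, by limma at an adjusted p under 0.05, beside 33.4% and 32.6% of all genes (66.0% in either direction). In 23 members all 4 CTCF-A KO libraries lay above all 4 CTCF-B KO libraries and in 2 all 4 lay below, beside 28.3% and 25.3% of all genes. The 5 were NEU1, SCARB2, ATP6V1A, ATP6V1C1 and ATP6V1D. With the GC and length trend removed they stood, in this order, at -0.63, 0.09, 0.02, -0.19 and -0.19. SCARB2 then lay above CTCF-B KO by limma (adjusted p = 0.014). With replicate 4 alone for CTCF-A KO the 5 stood at -0.67, -0.03, 0.08, -0.06 and -0.21. The hydrolases had 14 higher and 1 lower of 18 and a median of 0.41. The 2 comparisons with wild type share their control libraries, so each member's values in both are given side by side and no overlap of their calls is read as a result.

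**Figure D2:**
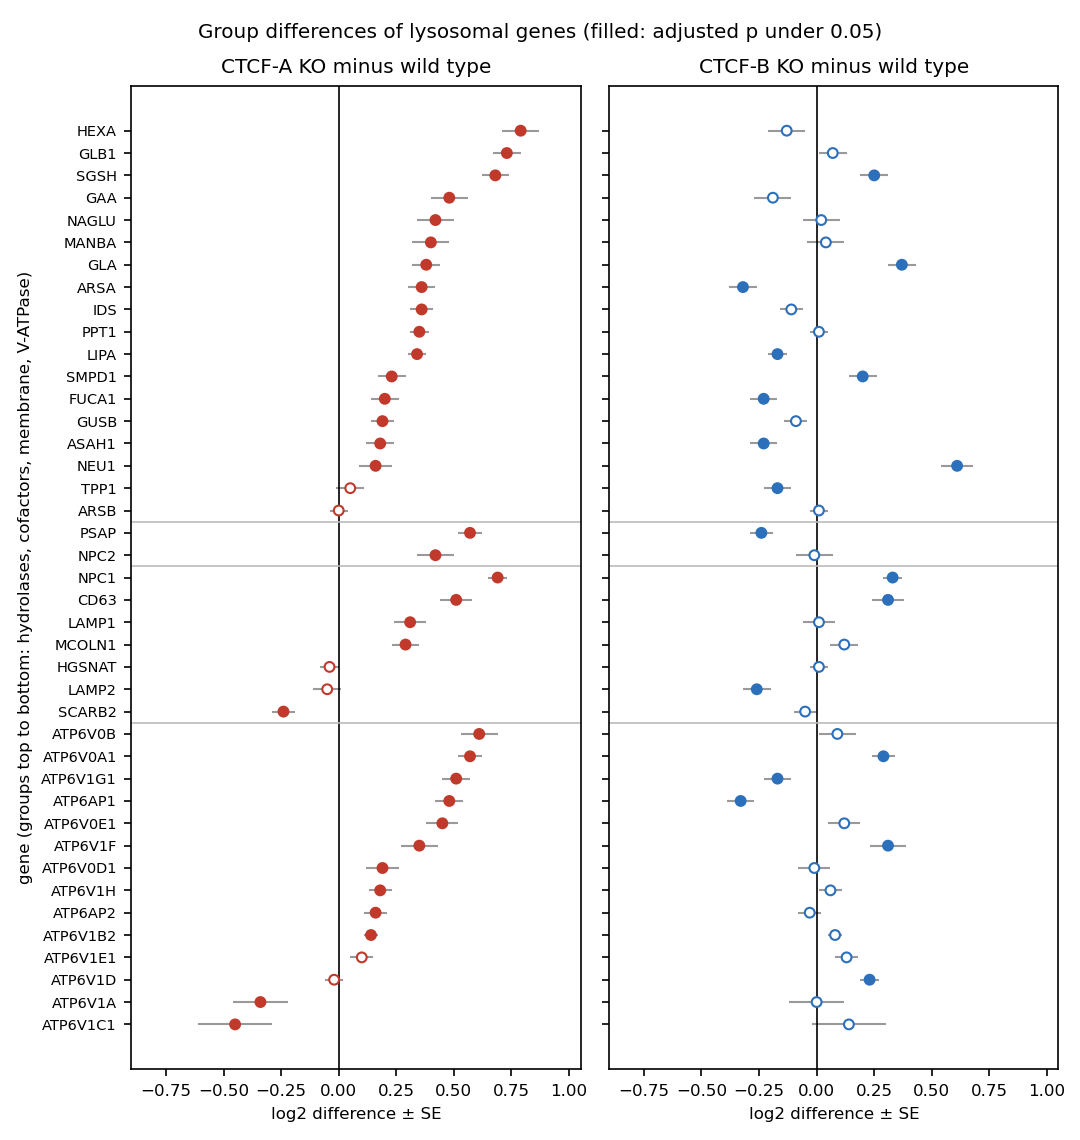
Log2 difference from wild type with its standard error (limma, 4 libraries a group) for each of the 41 genes, for CTCF-A KO on the left and CTCF-B KO on the right; filled points have an adjusted p under 0.05. On the left 32 filled points lie right of 0 and 3 left of it, and on the right 9 lie on each side.

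Among the 9 glycosidases, which cut sugars from glycolipids, glycoproteins and glycosaminoglycans, all were called higher in CTCF-A KO. HEXA (ENSG00000213614, chromosome 15, 72340919 to 72376476, GRCh38), the alpha subunit of beta-hexosaminidase A that breaks down GM2 ganglioside, had the highest difference of all members. Its values were 9.12, 9.12, 9.05 and 9.20 in wild type, 10.06, 9.91, 10.01 and 9.66 for CTCF-A KO and 9.0, 8.96, 8.93 and 9.08 for CTCF-B KO. The CTCF-A KO libraries stood apart from all others, with replicate 4 the lowest of them, and the wild-type and CTCF-B KO values overlapped. The rise was 0.79 ± 0.08 (SE), or 1.72-fold (adjusted p = 2.44e-06), and 0.54 from replicate 4 alone. The CTCF-B KO difference was -0.13 (adjusted p = 0.194), which passed only when CTCF-A KO replicate 4 was left out or when the CTCF-A KO group was reduced or dropped (adjusted p = 0.0352 without replicate 4). Between the knockouts HEXA differed by 0.92 ± 0.08 (adjusted p = 3.93e-07).

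GLB1 (ENSG00000170266, chromosome 3, 32996608 to 33097230), the beta-galactosidase that acts on GM1 ganglioside and keratan sulfate, followed. It was at 10.88, 10.91, 10.78 and 10.83 in wild type, 11.71, 11.56, 11.62 and 11.42 for CTCF-A KO and 10.97, 10.88, 10.90 and 10.94 for CTCF-B KO. All 4 CTCF-A KO values exceeded every other library, by 0.73 ± 0.06 over wild type (adjusted p = 3.83e-07), while CTCF-B KO overlapped wild type (0.07, adjusted p = 0.357). Its locus also holds TMPPE on the same strand, so reads shared between the 2 genes cannot be told apart here. GLA (ENSG00000102393, chromosome X, 101397803 to 101408012), the alpha-galactosidase that is lacking in Fabry disease, was at 9.86, 9.72, 9.82 and 9.79 in wild type, 10.29, 10.22, 10.21 and 10.00 for CTCF-A KO and 10.15, 10.26, 10.10 and 10.14 for CTCF-B KO. Both knockouts lay wholly above wild type and overlapped each other: GLA rose by 0.38 ± 0.06 in CTCF-A KO (adjusted p = 0.000199) and by 0.37 ± 0.06 in CTCF-B KO (adjusted p = 0.000489). The CTCF-A KO rise was 0.20 in replicate 4 alone. The difference between the knockouts was 0.02 ± 0.06 (adjusted p = 0.816), and -0.16 with replicate 4 alone.

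NEU1 (ENSG00000204386, chromosome 6, 31857659 to 31862906), the sialidase that trims sialic acid from glycoproteins and glycolipids, had the highest CTCF-B KO difference of all members. It was at 11.37, 11.34, 11.31 and 11.34 in wild type, 11.69, 11.47, 11.56 and 11.28 for CTCF-A KO and 11.94, 11.96, 11.94 and 11.95 for CTCF-B KO. The 4 CTCF-B KO values were nearly equal and above every other library, whereas CTCF-A KO spread from below to above the wild-type range, with replicate 4 the lowest. NEU1 rose by 0.61 ± 0.07 in CTCF-B KO, or 1.53-fold (adjusted p = 1.14e-05), and CTCF-A KO lay -0.45 ± 0.07 from CTCF-B KO (adjusted p = 6.67e-05). The CTCF-A KO call over wild type (0.16 ± 0.07, adjusted p = 0.0454) was lost without any 1 library other than CTCF-A KO replicate 4, at adjusted p-values of 0.0584 to 0.125 and differences of 0.10 to 0.17. Its sign turned with the GC trend removed (-0.05) and in replicate 4 alone (-0.06).

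FUCA1 (ENSG00000179163, chromosome 1, 23845077 to 23868294), the alpha-L-fucosidase of glycoprotein breakdown, moved in opposite directions. Its values were 9.78, 9.88, 9.75 and 9.86 in wild type, 10.13, 10.02, 10.10 and 9.84 for CTCF-A KO and 9.60, 9.53, 9.56 and 9.66 for CTCF-B KO. CTCF-B KO lay wholly below wild type, and CTCF-A KO lay above it except for replicate 4, which stood within it. The differences were 0.20 ± 0.06 in CTCF-A KO (adjusted p = 0.013) and -0.23 ± 0.06 in CTCF-B KO (adjusted p = 0.0111); the former was 0.13 with the trend removed and 0.02 in replicate 4 alone. The other glycosidases rose in CTCF-A KO and were not called in CTCF-B KO. GAA, which releases glucose from glycogen, rose by 0.48 ± 0.08, NAGLU, an enzyme of heparan sulfate breakdown, by 0.42 ± 0.08, and MANBA by 0.40 ± 0.08. With the trend removed GAA was at 0.28, NAGLU at 0.20 and MANBA at 0.51. GUSB, the beta-glucuronidase of glycosaminoglycan breakdown, rose by 0.19 ± 0.05, but stood at -0.01 with the trend removed and at 0.08 in replicate 4. The CTCF-B KO difference of GAA was -0.19 (adjusted p = 0.0698), and it passed when CTCF-A KO replicate 1, 2 or 4 was left out (adjusted p = 0.0183, 0.0499 and 0.0357). That of GUSB was -0.09 (adjusted p = 0.137), or 0.0404 without CTCF-A KO replicate 4.

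**Figure D3:**
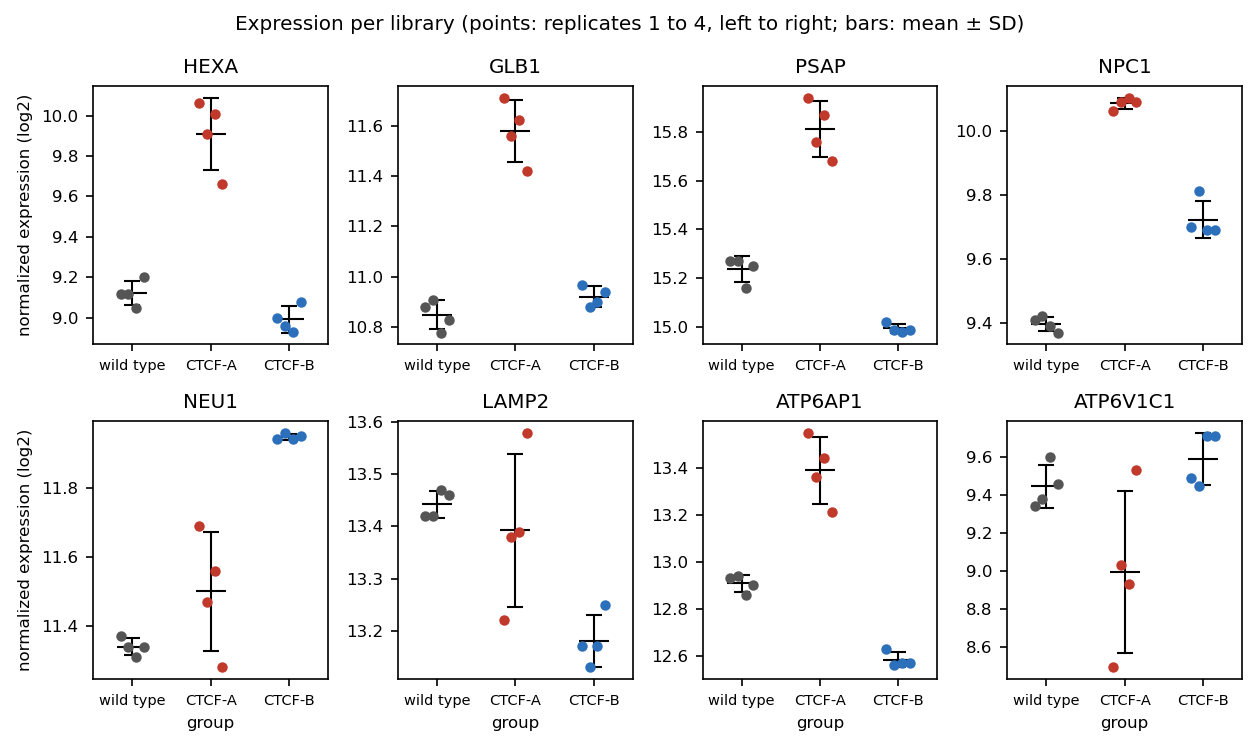
Deposited log2 expression of 8 lysosomal genes in each library, by group; points are replicates 1 to 4 from left to right and bars are the mean ± SD of 4 libraries, each panel with its own axis, which does not start at 0. HEXA, GLB1, PSAP and NPC1 lie wholly higher in CTCF-A KO, and NEU1 wholly higher in CTCF-B KO. For LAMP2 and ATP6V1C1 the CTCF-A KO libraries are spread, with replicate 1 the lowest and replicate 4 the highest.

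The enzymes that remove sulfate groups split. SGSH (ENSG00000181523, chromosome 17, 80206716 to 80220923), which removes N-linked sulfate from heparan sulfate, was at 9.68, 9.63, 9.50 and 9.51 in wild type, 10.41, 10.17, 10.30 and 10.15 for CTCF-A KO and 9.81, 9.80, 9.86 and 9.87 for CTCF-B KO. The groups did not overlap, with CTCF-A KO highest and wild type lowest: SGSH rose by 0.68 ± 0.06 in CTCF-A KO (adjusted p = 1.72e-06) and by 0.25 ± 0.06 in CTCF-B KO (adjusted p = 0.00612). It overlaps SLC26A11 on the opposite strand, and the strand setting of the counting is not given. ARSA (ENSG00000100299, chromosome 22, 50622754 to 50628173), which removes sulfate from the myelin lipid sulfatide, was at 9.14, 9.02, 8.93 and 9.01 in wild type, 9.54, 9.32, 9.37 and 9.30 for CTCF-A KO and 8.66, 8.74, 8.76 and 8.67 for CTCF-B KO. CTCF-A KO lay wholly above and CTCF-B KO wholly below wild type, by 0.36 ± 0.06 (adjusted p = 0.000308) and -0.32 ± 0.06 (adjusted p = 0.00134), and the knockouts differed by 0.67 ± 0.06 (adjusted p = 1.04e-06). After trend removal the CTCF-A KO value was 0.14. IDS, the iduronate sulfatase, rose by 0.36 ± 0.05 in CTCF-A KO (0.69 with the trend removed) and was at -0.11 in CTCF-B KO (adjusted p = 0.0864). ARSB (ENSG00000113273, chromosome 5, 78777209 to 78986087), which acts on dermatan sulfate, was at 10.07, 10.01, 10.13 and 10.03 in wild type, 10.01, 10.07, 10.09 and 10.04 for CTCF-A KO and 10.02, 10.13, 10.05 and 10.09 for CTCF-B KO. Its 3 groups overlapped, with differences of 0.00 ± 0.04 and 0.01 ± 0.04 (adjusted p = 0.927 and 0.826).

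All 4 lipid-directed hydrolases rose in CTCF-A KO. ASAH1 (ENSG00000104763, chromosome 8, 18055992 to 18084998), the acid ceramidase, was at 11.19, 11.18, 11.18 and 11.19 in wild type, 11.18, 11.37, 11.40 and 11.52 for CTCF-A KO and 10.97, 10.89, 10.95 and 10.99 for CTCF-B KO. Wild type was nearly constant, replicate 1 of CTCF-A KO was level with it, the other 3 lay above, and CTCF-B KO lay wholly below. The differences were 0.18 ± 0.06 (adjusted p = 0.0151) and -0.23 ± 0.06 (adjusted p = 0.00636), and the former was 0.35 after trend removal and 0.33 in replicate 4. LIPA, the lysosomal acid lipase that frees cholesterol from its esters, rose by 0.34 ± 0.04 in CTCF-A KO and fell in CTCF-B KO (-0.17 ± 0.04, adjusted p = 0.00643). LIPA overlaps IFIT1, IFIT2 and IFIT3 on the opposite strand, and PPT1 likewise overlaps CAP1. PPT1, which removes palmitate from proteins, rose by 0.35 ± 0.04 in CTCF-A KO (adjusted p = 3.47e-06) and was at 0.01 in CTCF-B KO (adjusted p = 0.848). SMPD1, the acid sphingomyelinase, was called higher in both, by 0.23 ± 0.06 (adjusted p = 0.00626) and 0.20 ± 0.06 (adjusted p = 0.019). The CTCF-A KO value of SMPD1 was 0.01 with the trend removed and 0.08 in replicate 4, and the CTCF-B KO call was lost without wild type replicate 3 or 4 or CTCF-B KO replicate 1 (adjusted p = 0.059, 0.0516 and 0.0522). TPP1, a peptidase that takes tripeptides from protein ends, was at 0.05 in CTCF-A KO (adjusted p = 0.464) and -0.17 ± 0.06 in CTCF-B KO (adjusted p = 0.0456). The latter call of TPP1 was lost without wild type replicate 1, 2 or 4, CTCF-A KO replicate 3, or CTCF-B KO replicate 1, 2 or 4, at adjusted p-values of 0.0597 to 0.131.

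The soluble cofactors present lipids to these enzymes and carriers. PSAP (ENSG00000197746, chromosome 10, 71816298 to 71851375), cut into the saposins that hand sphingolipids to hydrolases such as GLA and ARSA, was at 15.27, 15.27, 15.16 and 15.25 in wild type, 15.94, 15.76, 15.87 and 15.68 for CTCF-A KO and 15.02, 14.99, 14.98 and 14.99 for CTCF-B KO. Here too CTCF-A KO lay wholly above and CTCF-B KO wholly below wild type. PSAP rose by 0.57 ± 0.05 in CTCF-A KO, or 1.49-fold (adjusted p = 8.96e-07), fell in CTCF-B KO (-0.24 ± 0.05, adjusted p = 0.00173), and differed by 0.82 ± 0.05 between the knockouts (adjusted p = 2.26e-08). After quantile normalization PSAP was at 0.29 in CTCF-A KO (adjusted p = 8.69e-06) and -0.07 in CTCF-B KO (adjusted p = 0.141), and at 0.36 between them. NPC2 (ENSG00000119655, chromosome 14, 74476192 to 74494177), which passes cholesterol to NPC1, was at 10.75, 10.75, 10.82 and 10.83 in wild type, 11.34, 11.28, 11.30 and 10.92 for CTCF-A KO and 10.83, 10.83, 10.74 and 10.74 for CTCF-B KO. CTCF-A KO replicates 1 to 3 stood well above wild type and replicate 4 only slightly above it, while CTCF-B KO overlapped wild type. The difference was 0.42 ± 0.08 in CTCF-A KO (adjusted p = 0.000486) and 0.13 from replicate 4 alone (adjusted p = 0.0669), against -0.01 in CTCF-B KO (adjusted p = 0.945). With the trend removed the CTCF-A KO value of NPC2 was 0.22. NPC2 overlaps ISCA2 on the opposite strand.

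The cholesterol exporter NPC1 (ENSG00000141458, chromosome 18, 23506184 to 23586898) rose in both knockouts. It was at 9.41, 9.42, 9.39 and 9.37 in wild type, 10.06, 10.09, 10.10 and 10.09 for CTCF-A KO and 9.70, 9.81, 9.69 and 9.69 for CTCF-B KO. The 3 groups did not overlap, with wild type lowest and CTCF-A KO highest, and CTCF-A KO replicate 4 was level with the other 3. NPC1 rose by 0.69 ± 0.04 in CTCF-A KO, or 1.61-fold (adjusted p = 3.1e-08), with 0.68 after trend removal and 0.69 in replicate 4. In CTCF-B KO it rose by 0.33 ± 0.04 (adjusted p = 3.77e-05), and the knockouts differed by 0.36 ± 0.04 (adjusted p = 5.84e-06). NPC1 overlaps RMC1 on the opposite strand. CD63 (ENSG00000135404, chromosome 12, 55725323 to 55729707), a tetraspanin of late endosomes and lysosomes, was at 13.27, 13.24, 13.23 and 13.28 in wild type, 13.90, 13.78, 13.84 and 13.51 for CTCF-A KO and 13.58, 13.58, 13.55 and 13.54 for CTCF-B KO. Both knockouts lay wholly above wild type, and CTCF-A KO replicate 4 stood just below the CTCF-B KO libraries. CD63 rose by 0.51 ± 0.07 (adjusted p = 2.99e-05) and 0.31 ± 0.07 (adjusted p = 0.00209), and the former was 0.28 with the trend removed and 0.26 in replicate 4. The difference between the knockouts (0.19 ± 0.07, adjusted p = 0.0184) was lost without CTCF-A KO replicate 1 or 3 (adjusted p = 0.0513 and 0.0592), and was 0.00 with the trend removed.

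LAMP1 and LAMP2, the heavily glycosylated proteins that line the lysosomal membrane, differed from each other. LAMP1 (ENSG00000185896, chromosome 13, 113297241 to 113323672) was at 12.50, 12.63, 12.38 and 12.38 in wild type, 12.96, 12.81, 12.73 and 12.64 for CTCF-A KO and 12.60, 12.43, 12.43 and 12.46 for CTCF-B KO. All 4 CTCF-A KO libraries lay above the wild-type range, replicate 4 barely, and CTCF-B KO overlapped it. LAMP1 rose by 0.31 ± 0.07 in CTCF-A KO (adjusted p = 0.00257), with 0.12 after trend removal (adjusted p = 0.0501) and 0.17 in replicate 4 (adjusted p = 0.129), and was at 0.01 in CTCF-B KO (adjusted p = 0.951). LAMP2 (ENSG00000005893, chromosome X, 120427827 to 120469365), also a receptor of chaperone-mediated autophagy, was at 13.42, 13.42, 13.47 and 13.46 in wild type, 13.22, 13.38, 13.39 and 13.58 for CTCF-A KO and 13.17, 13.13, 13.17 and 13.25 for CTCF-B KO. CTCF-B KO lay wholly below wild type, and of the CTCF-A KO libraries replicates 1 to 3 lay below and replicate 4 above. LAMP2 fell in CTCF-B KO (-0.26 ± 0.06, adjusted p = 0.00393), with -0.18 (adjusted p = 0.0802) after quantile normalization. In CTCF-A KO it was at -0.05 ± 0.06 (adjusted p = 0.478). LAMP2 has the lowest GC content of the members at 37.7%, and its CTCF-A KO value was 0.32 (adjusted p = 7.54e-05) with the trend removed, 0.14 in replicate 4 alone (adjusted p = 0.0218) and -0.11 without replicate 4 (adjusted p = 0.0247).

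SCARB2 (ENSG00000138760, chromosome 4, 76158733 to 76234536), the receptor LIMP-2 that brings glucocerebrosidase to the lysosome, was at 12.70, 12.70, 12.73 and 12.71 in wild type, 12.31, 12.46, 12.48 and 12.63 for CTCF-A KO and 12.65, 12.62, 12.65 and 12.71 for CTCF-B KO. It was the one member with all 4 CTCF-A KO libraries below wild type, replicate 4 being the nearest to it, and CTCF-B KO overlapped wild type. Its CTCF-A KO difference was -0.24 ± 0.05 (adjusted p = 0.00218), but 0.04 (adjusted p = 0.196) with the trend removed and -0.08 in replicate 4 (adjusted p = 0.116). MCOLN1 (ENSG00000090674, chromosome 19, 7522626 to 7534009), the cation channel TRPML1 that lets calcium out of the lysosome, was at 9.55, 9.47, 9.56 and 9.46 in wild type, 9.87, 9.81, 9.88 and 9.62 for CTCF-A KO and 9.64, 9.68, 9.63 and 9.57 for CTCF-B KO. CTCF-A KO lay wholly above wild type with replicate 4 nearest, and CTCF-B KO lay above wild type by a smaller step. MCOLN1 rose by 0.29 ± 0.06 in CTCF-A KO (adjusted p = 0.00109), with 0.06 after trend removal and 0.11 in replicate 4. It overlaps PNPLA6 on the same strand. Its CTCF-B KO difference was 0.12 (adjusted p = 0.118, or 0.0194 without CTCF-A KO replicate 4). HGSNAT (ENSG00000165102, chromosome 8, 43140455 to 43202855), which acetylates heparan sulfate inside the lysosome, was at 10.61, 10.66, 10.62 and 10.57 in wild type, 10.57, 10.61, 10.58 and 10.53 for CTCF-A KO and 10.65, 10.56, 10.63 and 10.65 for CTCF-B KO. All 3 groups overlapped, at -0.04 ± 0.04 and 0.01 ± 0.04 from wild type (adjusted p = 0.389 and 0.899).

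Of the V-ATPase members, 4 of 4 V0 subunits, 2 of 2 accessory proteins and 4 of 8 V1 subunits were called higher in CTCF-A KO, and 2 V1 subunits lower. Of 10 other V-ATPase subunits and assembly factors, outside the list, 6 were higher and 2 lower in CTCF-A KO, beside 31.8% and 31.1% of all genes. The 2 not called were the V0 subunits ATP6V0A2 and ATP6V0E2, at -0.08 and -0.01 (adjusted p = 0.295 and 0.892). RNASEK was among the 6, at 0.57 ± 0.11 (adjusted p = 0.000745) and 0.35 with the trend removed. ATP6V0B (ENSG00000117410, chromosome 1, 43974487 to 43978295), a proton-carrying proteolipid of the V0 ring, was at 11.73, 11.71, 11.76 and 11.74 in wild type, 12.56, 12.33, 12.44 and 12.07 for CTCF-A KO and 11.86, 11.77, 11.85 and 11.82 for CTCF-B KO. CTCF-A KO lay wholly above both other groups, replicate 4 the lowest, by 0.61 ± 0.08 over wild type (adjusted p = 2.93e-05) with 0.38 after trend removal and 0.33 in replicate 4. The CTCF-B KO difference was 0.09 (adjusted p = 0.418). ATP6V0A1 (ENSG00000033627, chromosome 17, 42458844 to 42522611), the V0 subunit that forms the path of the protons and is the main form in the nervous system, was at 10.56, 10.67, 10.62 and 10.58 in wild type, 11.29, 11.09, 11.23 and 11.10 for CTCF-A KO and 10.90, 10.90, 10.90 and 10.90 for CTCF-B KO. Both knockouts lay wholly above wild type and CTCF-A KO wholly above CTCF-B KO, whose 4 libraries were equal to 2 decimals. ATP6V0A1 rose by 0.57 ± 0.05 (adjusted p = 9.37e-07) and 0.29 ± 0.05 (adjusted p = 0.000432), and the knockouts differed by 0.28 ± 0.05 (adjusted p = 0.000286). ATP6V0E1, a small V0 subunit, rose by 0.45 ± 0.07 in CTCF-A KO, with 0.19 in replicate 4. ATP6V0D1, which joins V0 to the rotor, was at 0.19 ± 0.07 (adjusted p = 0.0392). That call was lost without any 1 library other than CTCF-A KO replicate 4 (adjusted p-values of 0.0502 to 0.111), and ATP6V0D1 was at -0.04 with the trend removed and -0.07 in replicate 4.

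The V1 sector held the only members with called falls in CTCF-A KO besides SCARB2. ATP6V1C1 (ENSG00000155097, chromosome 8, 103021063 to 103073051), a stalk subunit that helps V1 attach to and leave V0, was at 9.34, 9.38, 9.60 and 9.46 in wild type, 8.49, 9.03, 8.93 and 9.53 for CTCF-A KO and 9.49, 9.45, 9.71 and 9.71 for CTCF-B KO. CTCF-A KO replicates 1 to 3 lay below every other library and replicate 4 within the wild-type range. ATP6V1A (ENSG00000114573, chromosome 3, 113747019 to 113812056), the subunit that hydrolyses ATP, was at 10.25, 10.28, 10.30 and 10.35 in wild type, 9.59, 9.94, 9.92 and 10.38 for CTCF-A KO and 10.27, 10.27, 10.29 and 10.34 for CTCF-B KO. It showed the same arrangement, with replicate 1 lowest and replicate 4 slightly above wild type. The differences were -0.45 ± 0.16 for ATP6V1C1 (adjusted p = 0.0282) and -0.34 ± 0.12 for ATP6V1A (adjusted p = 0.0226). They were -0.04 and 0.01 with the trend removed, and 0.09 and 0.08 in replicate 4 alone. The call of ATP6V1C1 was lost without wild type replicate 3 or 4 or CTCF-A KO replicate 1 or 3 (differences of -0.40, -0.44, -0.28 and -0.43), and that of ATP6V1A without wild type replicate 4 or CTCF-A KO replicate 1 or 3 (-0.32, -0.22 and -0.33). In CTCF-B KO both overlapped wild type, at 0.14 and 0.00 (adjusted p = 0.521 and 0.982).

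The other V1 subunits showed several arrangements. ATP6V1G1 (ENSG00000136888, chromosome 9, 114587746 to 114598373), a peripheral stalk subunit whose promoter is shown above, was at 11.03, 11.00, 10.98 and 11.03 in wild type, 11.59, 11.57, 11.58 and 11.33 for CTCF-A KO and 10.88, 10.89, 10.78 and 10.80 for CTCF-B KO. CTCF-A KO lay wholly above and CTCF-B KO wholly below wild type, and CTCF-A KO replicate 4 stood apart from the other 3. ATP6V1G1 rose by 0.51 ± 0.06 in CTCF-A KO (adjusted p = 8.96e-06), 0.32 in replicate 4, and the knockouts differed by 0.68 ± 0.06 (adjusted p = 4.35e-07). Its fall in CTCF-B KO (-0.17 ± 0.06, adjusted p = 0.029) was lost without wild type replicate 1, 2 or 4 or CTCF-B KO replicate 3 or 4, at adjusted p-values of 0.056 to 0.0846. ATP6V1F (ENSG00000128524, chromosome 7, 128862826 to 128865844), part of the central rotor, was at 11.08, 11.00, 11.05 and 11.01 in wild type, 11.57, 11.46, 11.44 and 11.08 for CTCF-A KO and 11.39, 11.40, 11.33 and 11.26 for CTCF-B KO. CTCF-B KO and CTCF-A KO replicates 1 to 3 stood above wild type, while CTCF-A KO replicate 4 equalled its highest library to 2 decimals. ATP6V1F was called higher in both, by 0.35 ± 0.08 (adjusted p = 0.00251) and 0.31 ± 0.08 (adjusted p = 0.00942), with 0.13 in CTCF-A KO after trend removal and 0.05 in replicate 4. ATP6V1D (ENSG00000100554, chromosome 14, 67294371 to 67360265), the rotor shaft, was at 9.82, 9.82, 9.85 and 9.86 in wild type, 9.74, 9.84, 9.81 and 9.86 for CTCF-A KO and 10.10, 10.07, 10.07 and 10.03 for CTCF-B KO. Only CTCF-B KO stood apart, wholly above the other groups, by 0.23 ± 0.04 over wild type (adjusted p = 0.000506) against -0.02 in CTCF-A KO (adjusted p = 0.612). The knockouts differed by -0.26 ± 0.04 (adjusted p = 9.95e-05). ATP6V1D overlaps EIF2S1 and MPP5 on the opposite strand.

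ATP6V1H, a regulatory subunit, and ATP6V1B2, the partner of ATP6V1A in the ATP-hydrolysing ring, rose in CTCF-A KO by 0.18 ± 0.05 and 0.14 ± 0.03 (adjusted p = 0.00683 and 0.00286). In replicate 4 alone they stood at 0.11 and 0.09, and neither passed the test. ATP6V1E1, a stalk subunit, was called in neither knockout, at 0.10 ± 0.05 (adjusted p = 0.104) and 0.13 ± 0.05 (adjusted p = 0.0607). Without CTCF-A KO replicate 4 it passed in both, at 0.16 (adjusted p = 0.000798) and 0.13 (adjusted p = 0.0029), and in CTCF-B KO it also passed without CTCF-A KO replicate 2 (adjusted p = 0.0467). The CTCF-B KO differences of ATP6V1B2 (0.08) and ATP6V0E1 (0.12) likewise passed only without CTCF-A KO replicate 4 among the fits that left out 1 library (adjusted p = 0.02 and 0.00739).

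The accessory proteins, which help assemble the pump, rose in CTCF-A KO. ATP6AP1 (ENSG00000071553, chromosome X, 154428632 to 154436516), also called Ac45, was at 12.93, 12.94, 12.86 and 12.90 in wild type, 13.55, 13.36, 13.44 and 13.21 for CTCF-A KO and 12.63, 12.56, 12.57 and 12.57 for CTCF-B KO. The 3 groups did not overlap, with CTCF-A KO highest and CTCF-B KO lowest. ATP6AP1 rose by 0.48 ± 0.06 in CTCF-A KO (adjusted p = 1.71e-05), with 0.26 after trend removal and 0.30 in replicate 4, and its CTCF-B KO difference of -0.33 ± 0.06 (adjusted p = 0.000648) was the lowest of all members. The knockouts differed by 0.81 ± 0.06 (adjusted p = 1.08e-07). ATP6AP2 (ENSG00000182220, chromosome X, 40579372 to 40606848), also known as the prorenin receptor, was at 11.03, 11.08, 11.08 and 11.09 in wild type, 11.11, 11.23, 11.24 and 11.32 for CTCF-A KO and 11.01, 10.97, 11.05 and 11.13 for CTCF-B KO. CTCF-A KO lay wholly above wild type, with replicate 4 the highest here, and CTCF-B KO overlapped wild type. ATP6AP2 rose by 0.16 ± 0.05 (adjusted p = 0.0156) and by 0.33 with the trend removed and 0.25 in replicate 4, but lost its call after quantile normalization (0.13, adjusted p = 0.0543). It was at -0.03 in CTCF-B KO (adjusted p = 0.693).

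The GC content of the members had a median of 49.0%, beside 49.4% for all genes tested. By group the median was 50.8% for hydrolases, 50.3% for membrane proteins and 45.6% for V-ATPase genes. The 20 members with a GC content of 50% or more had a median CTCF-A KO difference of 0.42, and 19 of them were called higher. The 21 members below 50% had a median of 0.18, with 13 called higher and 3 lower. With the trend removed the medians were 0.21 and 0.29, and in replicate 4 they were 0.27 and 0.14. All 3 members called lower (SCARB2, ATP6V1A and ATP6V1C1) were among the GC-poor, and none was called lower in either alternative. Called higher in the full fit and in every one of the 22 alternative fits were 20 members: GLA, GLB1, HEXA, NAGLU, GAA, MANBA, ARSA, IDS, SGSH, ASAH1, LIPA and PPT1 of the hydrolases, the cofactor PSAP, NPC1 and CD63 of the membrane proteins, and ATP6V0A1, ATP6V0B, ATP6V0E1, ATP6V1G1 and ATP6AP1 of the pump. For CTCF-B KO the calls made in every fit were 8 rises (GLA, NEU1, SGSH, NPC1, CD63, ATP6V0A1, ATP6V1D and ATP6V1F) and 5 falls (FUCA1, ARSA, ASAH1, LIPA and ATP6AP1). The share of all genes that kept a call in every fit was not counted. These counts are therefore not read as particular to the members.

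**Figure D4:**
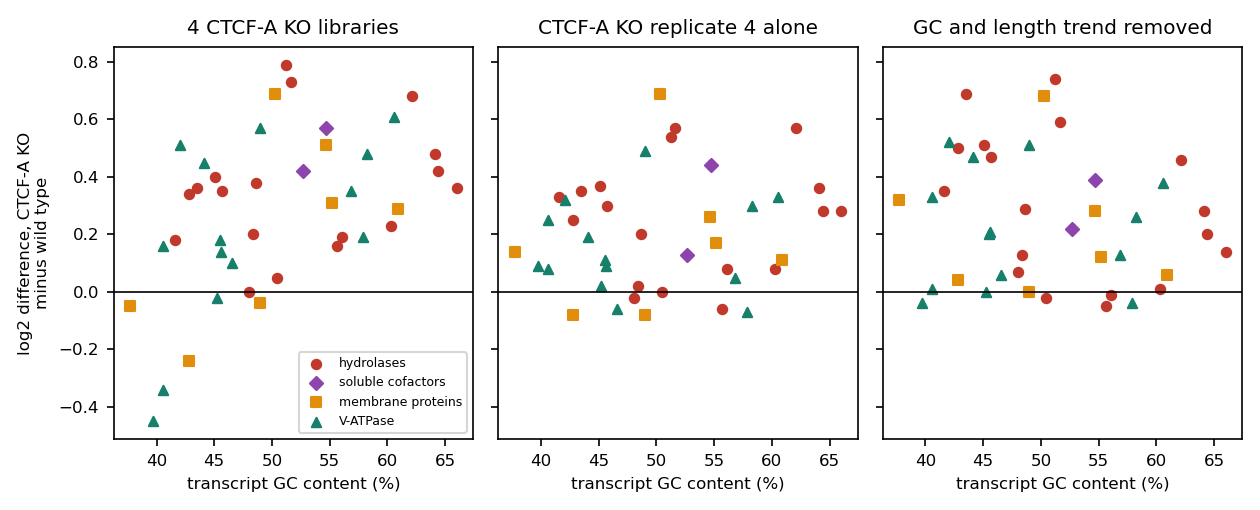
Log2 difference between CTCF-A KO and wild type against transcript GC content (%) for the 41 genes, marked by role, from all 4 CTCF-A KO libraries, from replicate 4 alone and after removal of the GC and length trend. The points below -0.2 at a GC content under 45% in the first panel lie near 0 in the other panels, while most of the points stay above 0.

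Some members stood where their chromosomal neighbours stood. The 27 genes tested within 5 Mb of LAMP2 had a median CTCF-B KO difference of -0.26, the same as LAMP2 itself, and the genes around ATP6AP1 and IDS, farther along the X chromosome, had medians of -0.21 and -0.23. In CTCF-A KO the genes around ATP6V0A1 and NAGLU on chromosome 17 had medians of 0.36 and 0.35 (0.25 and 0.26 with the trend removed), and those around GAA and SGSH 0.35 and 0.36 (0.19 and 0.19). The genes of each pair lie close together, so their neighbours are largely the same genes. Those around HEXA and ARSA had medians of 0.26 and 0.34 (0.19 and 0.18). SCARB2, itself at -0.24 (0.04 with the trend removed), had neighbours at a median of -0.51 (-0.25). The part of the neighbourhood in these results was not tested. For other members the signs differed: in CTCF-A KO the median of the neighbours was -0.40 for LIPA, -0.25 for MANBA, -0.19 for PSAP and -0.13 for GLB1, all of which rose. With the trend removed these neighbour medians were -0.23, -0.08, -0.21 and 0.04, so that for GLB1 the sign turned. The neighbours of NPC1 stood at a median of -0.06 for CTCF-A KO and 0.09 for CTCF-B KO, and those of NEU1 at 0.15 and 0.14. NEU1 itself was at 0.16 in CTCF-A KO, and with the trend removed it was at -0.05 and its neighbours at 0.01. FUCA1 was at 0.20 in CTCF-A KO and its neighbours at 0.18, and both were at 0.13 with the trend removed. The members named here are a selection.

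Members with and without the E-box were not tested against each other. The 9 members with CACGTG in their promoter window had a median CTCF-A KO difference of 0.31, with 8 called higher, and the 18 matched members without it a median of 0.34, with 14 higher and 1 lower. With the trend removed the medians were 0.12 and 0.24. In CTCF-B KO the medians were 0.01 and 0.00.

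Other genes of the pathway, from lists made with earlier results of these data known, were counted in the same fit, where 31.8% of all genes were higher and 31.1% lower in CTCF-A KO, and 18.9% and 20.6% in CTCF-B KO. The chromosomal neighbours of these genes were not examined, so the part of the neighbourhood in their differences was not tested. CLCN7 and GALNS, named below, both lie on chromosome 16, starting at 1444934 and 88813734. Of 24 other lysosomal enzymes and activators tested, 16 were higher and 3 lower in CTCF-A KO (median 0.27), and 6 were higher and 8 lower in CTCF-B KO. ACP5, an acid phosphatase, rose by 1.69 ± 0.10 in CTCF-A KO (adjusted p = 3.53e-08) and PLBD2, a phospholipase-like protein, by 0.81 ± 0.05 (adjusted p = 9.65e-08). GALNS, a sulfatase of keratan sulfate, fell in CTCF-A KO (-0.40 ± 0.07, adjusted p = 0.000494, and -0.62 with the trend removed). SIAE, a sialic acid esterase, fell in CTCF-B KO (-0.56 ± 0.09, adjusted p = 0.000455). Of 27 other lysosomal membrane proteins and transporters, 15 were higher and 4 lower in CTCF-A KO (median 0.20), led by the chloride-proton exchanger CLCN7 (1.00 ± 0.05, adjusted p = 8.69e-09) and the ion channel TPCN1 (0.86 ± 0.07, adjusted p = 3.24e-07). In CTCF-B KO 7 were higher and 8 lower, with TPCN2, a channel related to TPCN1, at -0.54 ± 0.09 (adjusted p = 0.000351). Of 10 other V-ATPase subunits and assembly factors, 6 were higher and 2 lower in CTCF-A KO, and 1 was higher and 3 lower in CTCF-B KO. Their CTCF-A KO median was 0.21, and 0.11 in replicate 4 alone. The 2 lower were WDR7 and VMA21, at -0.30 and -0.23, but 0.05 and 0.19 with the trend removed. In CTCF-B KO the 1 higher was RNASEK (0.37 ± 0.11, adjusted p = 0.0194). TCIRG1, an alternative form of the ATP6V0A1 subunit, was at -0.56 ± 0.07 there (adjusted p = 3.83e-05) and ROGDI at -0.56 ± 0.10 (adjusted p = 0.000613).

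Read beside the same shares of all genes, of 21 genes of lysosomal enzyme delivery 11 were higher and 6 lower in CTCF-A KO (median 0.10), and 7 were higher and 2 lower in CTCF-B KO. For the genes of this paragraph, too, the chromosomal neighbours were not examined. GNPTG and NAGPA, which act in making the mannose 6-phosphate tag, rose by 1.08 ± 0.08 and 0.99 ± 0.08 in CTCF-A KO (adjusted p = 3.83e-07 and 3.46e-07), while VPS35, a subunit of the retromer that returns sorting receptors, fell (-0.93 ± 0.11, adjusted p = 1.21e-05, and -0.55 with the trend removed). SORT1, the sorting receptor sortilin, fell in CTCF-B KO (-0.81 ± 0.05, adjusted p = 1.18e-07). Of 15 regulators of lysosomal genes, 10 were higher and 4 lower in CTCF-A KO (median 0.32), led by RRAGD, a GTPase that controls TFEB through mTORC1 (1.14 ± 0.05, adjusted p = 4.1e-09). In CTCF-B KO 3 were higher and 4 lower, and MITF, a relative of TFEB, was at -1.33 ± 0.11 (adjusted p = 9.13e-07).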

How the data were processed

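The 12 libraries hold total RNA of U251-APP cells in 3 groups of 4, sequenced as read pairs per the labels' protocols. Per the submitters' processing notes the tools were Trimmomatic 0.33, featureCounts and DESeq2, on GRCh38.p7; the aligner, gene annotation, strand setting and gene filter are not given in the sources used here. The deposited values are normalized expression on the authors' log2 scale (range 1.34 to 17.97), so the planned log2(value + 1) was not applied. With no counts, read depth is unknown and intervals for counting error are not given.

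Genes were kept with a linear value of at least 10 in at least 4 libraries. One model of 3 group means over all 12 libraries was fitted with limma 3.58.1 in R 4.3.3 (trended empirical Bayes, two-sided, Benjamini-Hochberg over all kept genes, threshold 0.05). Errors of differences are the model's standard errors. The GC and length trend was taken out per library with natural splines (5 by 4 degrees of freedom), for the 99.7% of kept genes with both properties. Positions and GC content are from GENCODE 29 (GRCh38). Scripts were tested on simulated data. The alternatives were other filters, scalings, variance models and library subsets, each library left out in turn, the replicate block and removal of the trend.

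The members and gene lists were chosen with earlier results of these data known. Values per library are given, within hydrolases, membrane proteins and V-ATPase and in each comparison with wild type, for the 3 members with the highest positive and the 3 with the lowest negative difference, and for both cofactors; in the other lists at most 2 rises and 2 falls are named.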

Additional observations from a re-analysis of the deposited data

Results flagged for a closer look

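Within each group of 4 libraries, the highest or lowest value of a member was picked out when its gap to the nearest other library took up more of the group's range than the 95% critical value of Dixon's test allows. Chance picks out about 1 in 20 groups, and 6 of the 123 gene and group combinations were picked out. NPC2 was at 10.92 in CTCF-A KO replicate 4, below the other 3 libraries at 11.28 to 11.34, and ATP6V1G1 was at 11.33 in the same library, below 11.57 to 11.59. In CTCF-B KO replicate 1, NAGLU was at 10.07 (the others 9.98 to 10.00), LAMP1 at 12.60 (the others 12.43 to 12.46) and ATP6AP1 at 12.63 (the others 12.56 to 12.57). NPC1 was at 9.81 in CTCF-B KO replicate 2, above 9.69 to 9.70 in the rest of its group.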

How the results depend on the processing

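Counts of called genes and members and the group medians were recomputed under 22 alternatives. In CTCF-A KO against wild type, the members called lower numbered 1 with only the 8 libraries compared and 0 with the GC and length trend removed (with or without the replicate block) or with replicate 4 alone; the hydrolase median was 0.44 with each library centred on its median and 0.28 under trend removal (with or without block) and replicate 4 alone, the membrane protein median 0.12, 0.12 and 0.14 under the latter 3, and the V-ATPase median 0.26 centred and 0.10 with replicate 4. Replicate 4 alone gave 4654 called genes. Centring gave 4302 rises and 2674 falls there over all genes, against 3540 and 3462. In CTCF-B KO against wild type, the 8 libraries compared and replicate 4 alone gave 6601 and 6604 called genes, with 14 members higher in each; the hydrolase median was 0.00 after quantile normalization, -0.03 centred and -0.02 under trend removal (with or without block), the membrane protein median 0.08 and the V-ATPase median 0.13 after quantile normalization, and the latter 0.06 under trend removal (with or without block). Between the knockouts the membrane protein median was 0.03 after quantile normalization, the V-ATPase median 0.22 centred, and with replicate 4 alone the medians were 0.30 (hydrolases), -0.01 (membrane proteins) and 0.06 (V-ATPase). Single members whose sign turned in CTCF-A KO against wild type were, under trend removal with or without block, GUSB (-0.01), NEU1 (-0.05), LAMP2 (0.32), SCARB2 (0.04), ATP6V0D1 (-0.04) and ATP6V1A (0.01), and with replicate 4 alone NEU1 (-0.06), LAMP2 (0.14), ATP6V0D1 (-0.07), ATP6V1A (0.08) and ATP6V1C1 (0.09). Between the knockouts they were, under trend removal with or without block, SMPD1 (-0.17), SCARB2 (0.09), MCOLN1 (-0.03), ATP6V1A (0.02) and ATP6V1F (-0.17), and with replicate 4 alone MCOLN1 (-0.01), CD63 (-0.05), ATP6V0D1 (-0.06), ATP6V1A (0.08) and ATP6V1F (-0.26). The cause was not tested. Leaving out 1 library at a time gave, for CTCF-A KO against wild type, 6182 to 8210 called genes, 30 to 33 members higher and 1 to 4 lower, with medians of 0.34 to 0.37 (hydrolases), 0.25 to 0.34 (membrane proteins) and 0.17 to 0.24 (V-ATPase). For CTCF-B KO it gave 3670 to 5824 called genes, 8 to 13 members higher, 7 to 12 lower, and medians of -0.06 to -0.03, -0.01 to 0.06 and 0.08 to 0.10; between the knockouts, 6734 to 8425 called genes, 25 to 31 higher, 4 to 5 lower, and medians of 0.36 to 0.42, 0.15 to 0.22 and 0.12 to 0.15. Correlations of the deviations of same-numbered libraries ran from -0.319 to 0.433, over 0.1 for some pairs but not all, and in 8 of 24 cases a library correlated best with its own number in another group, so the numbers were not taken as a pairing. The replicate block gave 7060, 4414 and 7420 called genes in the 3 comparisons, and TPP1 in CTCF-B KO (adjusted p = 0.0647) was the only member whose call it changed. Without counts, how far depth limits the small differences is unknown.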
